A study of Homo sapiens with 8 samples.

Results

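The guides described here target splice junctions of 20 genes that act in RNA decay by the exosome, in cleavage and polyadenylation at the 3′ end of messenger RNA, in Integrator and in the nuclear cap-binding complex. They were chosen by gene symbol, and genes typed as non-essential controls in the deposited table were left out. The rule found 1575 of the 46829 guides in the screen (3.36%), on 213 of its 6735 junctions. Of these, 336 guides target 6 exosome genes, 604 target 8 cleavage and polyadenylation genes, 489 target 5 Integrator genes, and 146 target NCBP1. Another 2 symbols, CNOT4 and CNOT8, matched by name but are typed as controls, with 8 guides between them.

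The screen was run in A375, an established human melanoma cell line, in cells with the genotype TetO-RfxCas13d. RfxCas13d is a CRISPR nuclease that cuts RNA rather than DNA, and a TetO promoter lets doxycycline switch it on. The line came from a single clone, so other A375 clones were not sampled. Replicates 1 and 2 were each sampled untreated at Day 0 and under 1 ug/ml doxycycline at Days 7, 14 and 21, which makes 8 libraries, and every group including Day 0 carried the same Cas13d construct.

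The exosome degrades RNA from its 3′ end: a ring of subunits without catalytic activity threads RNA to attached nucleases, and it processes or removes ribosomal, small nuclear and aberrant transcripts. Most messenger RNAs gain their 3′ end when the cleavage and polyadenylation machinery recognises the poly(A) signal, cuts the nascent transcript and adds the tail. Integrator cuts small nuclear RNAs and short transcripts that stall near promoters, and the nuclear cap-binding complex holds the 5′ end of new transcripts. All of these complexes serve RNA polymerase II transcripts in proliferating cells generally, not in melanoma cells alone.

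The authors' deposited values are log2 fold changes of each guide against the Day 0 library of the same replicate, and a value below 0 means that the guide became rarer in the pool. Values printed in pairs are replicates 1 and 2, in that order. Nothing in the labels says that the replicates were separate infections, so each p-value rests on the spread between libraries. That spread was moderated by limma with a value shared over all units of a fit. A printed SE is therefore not the spread of 1 gene's own 2 values. EXOSC8, for example, had an SD of 0.0076 between replicates at Day 21 and an SE of 0.14. Read depth was not given. The fold changes are ratios of whole numbers apart from a constant per library, and the smallest Day 0 number they allow for a member guide had a median of 87 in replicate 1 and 117 in replicate 2. Non-targeting guides gave the background: 16.8% ± 0.59 (SD, n = 2) of them were at or below -1 at Day 21, against 30.6% ± 1.4 of the member guides and 32.7% ± 1.6 of the other guides to scored genes. The 963 non-targeting guides had median values of -0.04 and 0.00 at Day 21.

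By Day 21 guides to EXOSC7, EXOSC8 and CPSF3 had become rarer on average, and the means of most other genes lay below 0 without passing the test. The mean over a gene's guides was below 0 in both replicates for 18 of 20 genes, where 61.3% of all 1223 genes tested and 75.0% of the 829 scored genes among them did the same. limma called 3 of the 20 genes lower than Day 0 (15.0%), against 20.8% of all genes tested and 28.2% of the 829 scored genes, so the share of members called was not above the background. The members' median was -0.57 and -0.51, against -0.48 and -0.37 for 809 other scored genes and -0.08 and -0.01 for 394 control genes. The difference between members and other scored genes was -0.11 ± 0.03 (SD, n = 2). With 2 replicates an exact two-sided sign-flip test cannot go below 0.5, so these medians carry no test.

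The count of 3 genes depended on the fit. With all days in 1 fit and the replicate number as a block, limma called 16, all but EXOSC10, CSTF1, NUDT21 and INTS13, and 45.5% of all genes. With the median over guides in place of the mean it called none of the 20 (2 at an unadjusted p under 0.05), and 2.04% of all genes. The median guide at Day 21 stood at -1.31 and -1.04 in EXOSC7, -0.50 and -0.27 in EXOSC8, and -0.27 and -0.28 in CPSF3. The median of all guides was -0.33 and -0.28.

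Several genes had splice junctions far below the rest of the gene, at a rate close to that of the whole screen. Each junction was targeted by up to 8 guides, and its mean was compared with the mean over the other guides of the same gene. Of 206 member junctions tested at Day 21, limma called 24 lower than the rest of their gene (11.7%), where 12.0% of all 6111 junctions tested were called lower. Another 11 were called higher (5.34%), against 9.92% of all junctions. The lower junctions lay in 15 of the 19 genes with a tested junction, and 7 genes had at least 2 of them. These counts rise with the number of junctions per gene and were not compared with other genes. Among genes with at least 3 junctions of at least 3 guides, members had a median of 12 such junctions. The other scored genes had a median of 7. With all days in 1 fit and the replicate block, 37 member junctions were called lower and 69 higher, where 20.0% and 26.1% of all junctions were. With the median over guides 17 were called lower and 2 higher, against 8.69% and 2.83% of all. Values given below as without a replicate leave Day 21 with 1 library, so these fits take the spread from all days together and assume that the lone library varies like the others. A very low junction pulls down the mean of the rest, and so raises the difference of every other junction of its gene. The effect is largest where junctions are few, and higher calls in genes with a lower junction are partly this arithmetic. In EXOSC8, with 2 junctions, the higher call is the lower call reversed.

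In the exosome core, guides to the ring subunits EXOSC7 and EXOSC8 dropped out most. EXOSC7 guides averaged 0.07 and -0.10 at Day 7, -1.36 and -1.64 at Day 14, and -1.65 and -1.58 at Day 21. The replicates lay close together at Day 21, and the mean of -1.62 (SE 0.14, n = 2) was called by limma with an adjusted p of 0.0128. EXOSC8 guides averaged -0.09 and -0.33, then -0.93 and -0.88, then -1.16 and -1.15 at the same days. Its Day 21 mean of -1.16 (SE 0.14, n = 2) had an adjusted p of 0.0205 by limma. Both calls were lost with the median over guides (adjusted p = 0.0895 and 0.280 by limma), and that of EXOSC8 also with each library centred on all its guides (adjusted p = 0.0641).

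The EXOSC7 loss came from 1 of its 3 targeted junctions. The 8 guides to the last, chr3:44997252-45001537 on the plus strand, averaged -0.10 and -1.09 at Day 7, -3.37 and -4.42 at Day 14, and -3.68 and -4.51 at Day 21, and all 8 were below 0 in both replicates at Day 21. Its difference from the rest of the gene was -3.80 (SE 0.38, adjusted p = 8.15e-10 by limma), and the 15 guides elsewhere in EXOSC7 averaged -0.57 and -0.02. The first junction, chr3:44989241-44989549, gave -0.54 and -0.48, and the second, chr3:44989644-44997086, gave -0.58 and 0.38. Both were called higher than the rest, which here includes the very low junction. With the median over guides the first was not called (adjusted p = 0.0591 by limma). The call of the second was lost without replicate 2 (1.63, adjusted p = 0.111).

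EXOSC8 also had 1 low junction, here the first of 2, but fewer of its guides were low. At Day 21, 4 of the 8 guides there were below 0 in both replicates. The 3 called lower one by one, with means of -5.6, -4.6 and -5.2, carried the junction's mean. At the first, chr13:37002551-37002933 on the plus strand, 8 guides averaged -1.85 and -1.28 at Day 14 and -2.47 and -1.63 at Day 21. At the second, chr13:37008177-37008728, 7 guides averaged 0.33 and -0.61 at Day 21, and the replicates fell on opposite sides of 0. The difference of -1.92 (SE 0.39) between them had an adjusted p of 0.00025 by limma. Without replicate 1 it was -1.03 with an adjusted p of 0.127.

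EXOSC2, a cap subunit on top of the ring, and EXOSC5, another ring subunit, had fewer guides and no called value. The 24 guides to EXOSC2 averaged 0.09 and -0.09 at Day 7, -0.33 and -0.20 at Day 14, and -0.62 and -0.29 at Day 21 (adjusted p = 0.153 by limma). Replicate 1 was the lower at Days 14 and 21, and none of its 3 junctions differed from the rest by the test. EXOSC5 had a single targeted junction, chr19:41386725-41387513 on the minus strand, and its 8 guides averaged -0.63 and -0.61 at Day 21 (adjusted p = 0.0665 by limma). For these 4 core genes the median was -0.90 and -0.88.

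The exosome's nucleases differed from each other. DIS3, the main catalytic subunit, is both an exonuclease and an endonuclease, and its 107 guides averaged 0.00 and -0.16 at Day 7, -0.39 and -0.65 at Day 14, and -0.59 and -0.72 at Day 21 (adjusted p = 0.0627 by limma). EXOSC10, an exonuclease of the nucleus, was the highest exosome gene, with 159 guides at -0.05 and 0.03, then -0.23 and 0.03, then -0.20 and 0.11. Its replicates took opposite signs at each day, and the Day 21 mean had an adjusted p of 0.871.

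DIS3 held the lowest tested junction of all 20 genes. The 7 guides to chr13:72770988-72771080 on the minus strand, the 8th of 15 junctions counted from the 5′ end, averaged -0.21 and -0.91 at Day 7, -3.33 and -4.06 at Day 14, and -4.34 and -5.72 at Day 21. Every guide there was below 0 in both replicates, 6 of the 7 were called lower one by one, and the rest of the gene averaged -0.33 and -0.37. The difference was -4.68 (SE 0.38, adjusted p = 6.588e-12 by limma). A second DIS3 junction, chr13:72762137-72763450, gave -1.75 and -2.57, and its call was lost without replicate 2 (difference -1.25, adjusted p = 0.0696). Away from these 2 junctions, the remaining 92 DIS3 guides averaged -0.21 and -0.18.

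Against a rest that holds the 2 lower junctions, other DIS3 junctions were called higher by the test. They were chr13:72763607-72765971, at 0.35 and 0.23 against -0.67 and -0.80 for its rest, and chr13:72761521-72761645, at 0.75 and 0.06. Neither was called with the median over guides (adjusted p = 0.188 for the first by limma). The second was not called without replicate 1 (0.82, adjusted p = 0.0595). In EXOSC10, 1 of 20 junctions was called lower, chr1:11077443-11077600 on the minus strand, with 8 guides at -1.21 and -1.45. This call too was lost without replicate 2 (difference -1.07, adjusted p = 0.0942).

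Among the cleavage factors, CPSF3 was the lowest. CPSF3 is the endonuclease that cuts the nascent transcript before the tail is added. Its 106 guides averaged -0.01 and -0.17 at Day 7, -0.73 and -0.81 at Day 14, and -0.81 and -0.77 at Day 21, and the replicates lay close together at the later days. The Day 21 mean of -0.79 (SE 0.14, n = 2) had an adjusted p of 0.0418 by limma. It was not called with the median over guides (adjusted p = 0.357), or with libraries centred on non-targeting guides (0.0525) or on all guides (0.120).

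CPSF3 had 3 of its 15 junctions called lower. The 8th junction, chr2:9441976-9443514 on the plus strand, had 8 guides that averaged -0.08 and -0.83 at Day 7, -2.70 and -4.19 at Day 14, and -3.76 and -3.63 at Day 21. All 8 were below 0 in both replicates, and the difference from the rest was -3.15 (SE 0.36, adjusted p = 1.378e-08 by limma). The 10th, chr2:9448350-9452912, rested on 3 guides at -2.22 and -2.45, of which 1 (-5.17 and -7.57) carried the mean. The 4th, chr2:9432688-9433870, gave -1.67 and -2.38. Neither was called with the median over guides (adjusted p = 0.825 for the 10th and 0.142 for the 4th by limma). The 4th was also not called without replicate 2 (difference -0.94, adjusted p = 0.0617). Off these 3 junctions, 87 CPSF3 guides averaged -0.40 and -0.30.

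CPSF2 is the catalytically inactive partner of CPSF3. It was the highest of the CPSF and scaffold genes: its 89 guides averaged 0.03 and -0.03 at Day 7, -0.35 and -0.25 at Day 14, and -0.43 and -0.31 at Day 21 (adjusted p = 0.170 by limma). Its 7th of 12 junctions, chr14:92138347-92142163 on the plus strand, stood at -2.73 and -1.97 with 8 guides, a difference of -2.17 from the rest (SE 0.36, adjusted p = 1.64e-05 by limma). Its 1st junction, chr14:92122128-92126121, was called higher at 0.56 and 0.87. That call was not made with the median over guides (adjusted p = 0.845 by limma).

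WDR33, which binds the poly(A) signal, had 39 guides at 0.11 and -0.15, then -0.38 and -0.66, then -0.48 and -0.68 at Days 7, 14 and 21 (adjusted p at Day 21 = 0.0844 by limma). The first of its 5 junctions, chr2:127771004-127811011 on the minus strand, gave -2.14 in both replicates. The other 31 guides averaged -0.05 and -0.31, and the difference of -1.97 (SE 0.36) had an adjusted p of 6.263e-05 by limma.

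SYMPK encodes symplekin, the scaffold that joins the cleavage factors. Its 142 guides averaged 0.03 and -0.24, then -0.51 and -0.56, then -0.60 and -0.56 (adjusted p at Day 21 = 0.0744 by limma). The SYMPK junctions called lower were 3 in a row, the 2nd to the 4th of 19 from the 5′ end, all on the minus strand of chromosome 19. They were chr19:45852535-45854174 at -2.17 and -2.93, chr19:45852385-45852481 at -3.17 and -1.64, and chr19:45848876-45852311 at -3.18 and -2.48 (adjusted p of 3.243e-05, 0.000223 and 3.604e-06 by limma). With the median over guides the 2nd was not called (adjusted p = 0.0563). The remaining 120 SYMPK guides averaged -0.19 and -0.22.

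The cleavage stimulation factor, which binds downstream of the cut site, was represented by CSTF1 and CSTF3. CSTF1 was the highest of the 20 genes, with 34 guides at 0.08 and 0.10, then -0.08 and 0.30, then -0.18 and 0.23, and the replicates disagreed in sign at Days 14 and 21 (adjusted p at Day 21 = 0.925 by limma). CSTF3 had 107 guides at 0.03 and -0.12, then -0.34 and -0.32, then -0.47 and -0.44 (adjusted p = 0.116). Its first junction of 15, chr11:33141762-33141884 on the minus strand, stood at -2.27 and -2.92, and the other 99 guides averaged -0.32 and -0.24. Without replicate 2 the difference of -1.95 had an adjusted p of 0.0828 by limma. The 14th junction, chr11:33085773-33085894, was called higher at 0.69 and 0.58, but not with the median over guides (adjusted p = 0.192).

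NUDT21, the RNA-binding subunit of cleavage factor I and a regulator of poly(A) site choice, had 32 guides at -0.37 and -0.06 at Day 21 (adjusted p = 0.433 by limma). None of its 4 junctions was called. PCF11, a subunit of cleavage factor II that binds the tail of RNA polymerase II, had 55 guides at -0.02 and -0.15, then -0.32 and -0.46, then -0.61 and -0.46 (adjusted p = 0.0910). Away from its lower junctions, 39 PCF11 guides averaged 0.07 and 0.16. The replicate 1 mean includes 7 guides to the 2nd junction, at 2.16 in that replicate. There the 1st, 5th, 6th and 7th junctions stood at 0.05, -0.64, -1.07 and 0.13, so a mean near 0 did not hold at each.

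The lower PCF11 junctions were neighbours on the plus strand of chromosome 11. The 3rd of 7, chr11:83164401-83165599, gave -2.11 and -3.04 (difference -2.38, SE 0.38, adjusted p = 5.817e-06 by limma). The 4th, chr11:83169995-83171817, gave -2.46 and -0.89, and without replicate 1 its difference was -0.51 (adjusted p = 0.173). The 2nd junction, chr11:83163867-83164206, was called higher with replicates far apart: it stood at 2.16 and -0.10, and without replicate 1 the difference was 0.41 (adjusted p = 0.670). The 7th, chr11:83177819-83181007, at 0.13 and 0.62, was not called higher without replicate 2 (0.86, adjusted p = 0.0724).

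Integrator guides averaged below 0 in both replicates for all 5 genes at Day 21, with a median of -0.54 and -0.57, and no gene passed the test. INTS8, a subunit of the module that recruits the phosphatase PP2A, was the lowest: its 145 guides averaged -0.04 and -0.07 at Day 7, -0.45 and -0.54 at Day 14, and -0.92 and -0.57 at Day 21 (adjusted p = 0.0661 by limma). INTS13 was the highest, with 30 guides at 0.03 and -0.06, then -0.07 and -0.22, then -0.21 and -0.28 (adjusted p = 0.315). INTS6, another subunit of the phosphatase module, had 94 guides at -0.01 and -0.11, then -0.38 and -0.43, then -0.64 and -0.61 (adjusted p = 0.0665).

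INTS9 pairs with the Integrator endonuclease INTS11 in the cleavage module. Its 79 guides averaged 0.08 and -0.09, then -0.26 and -0.50, then -0.54 and -0.59 (adjusted p at Day 21 = 0.0781 by limma). INTS2, a subunit of the complex's core, had 141 guides at 0.07 and -0.03, then -0.34 and -0.32, then -0.49 and -0.29 (adjusted p = 0.169). In both genes Day 7 values lay on both sides of 0 and Day 14 values below it.

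In Integrator, 6 junctions in 4 genes were called lower. INTS8 held 2 of them: the 17th of 21, chr8:94867337-94871883 on the plus strand, at -2.24 and -3.03, and the 11th, chr8:94853915-94856776, at -2.47 and -2.23. The 16th, chr8:94867196-94867275, next to the lowest, was called higher at 0.03 and 1.02, though not with the median over guides (adjusted p = 0.198 by limma). The adjacent INTS6 junctions chr13:51383741-51387385, at -1.49 and -1.59, and chr13:51383461-51383588, at -2.41 and -1.53, were the 7th and 8th of 13 on the minus strand. INTS2 had 1, chr17:61869988-61872264, the 15th of 19, at -1.96 and -1.65. INTS9 had 1, chr8:28793987-28796543, the 4th of 10, at -1.34 and -1.58.

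Several Integrator calls were not made under other settings, though both replicates had the same sign at each of these junctions. The 17th INTS8 junction was not called without replicate 2 (difference -1.39, adjusted p = 0.138 by limma), and neither were its 16th (0.99, adjusted p = 0.0655) and the INTS9 junction (-0.89, adjusted p = 0.0619). The 8th INTS6 junction was not called without replicate 1 (-1.01, adjusted p = 0.0598). With the median over guides, the INTS2 junction (adjusted p = 0.624 by limma), the 7th and 8th of INTS6 (0.0725 and 0.136) and that of INTS9 (0.215) were not called. Where implied numbers at Day 0 had to reach 50, the 7th INTS6 junction was not called (adjusted p = 0.219 by limma). Nor were the INTS9 junction and the 16th of INTS8. In INTS2, 2 of the 8 guides, at -6.55 and -6.05 and at -4.09 and -7.81, carried the mean. The 11th INTS8 junction was called under each of the 8 alternatives run.

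Most of the Integrator values remained away from these junctions. The other guides averaged -0.75 and -0.34 in INTS8 (130 guides), -0.45 and -0.48 in INTS9 (71), -0.40 and -0.21 in INTS2 (133) and -0.37 and -0.41 in INTS6 (78).

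NCBP1, the large subunit of the nuclear cap-binding complex, had a median guide near 0 beside some very low junctions. Its 146 guides averaged 0.01 and -0.14 at Day 7, -0.15 and -0.26 at Day 14, and -0.39 and -0.30 at Day 21 (adjusted p = 0.196 by limma), and the median guide stood at 0.00 and 0.06. Of its 146 guides, 17 were called lower one by one, where 11.1% of all 46829 guides were, so this count was close to the background. The 14th and 15th of 20 junctions, both on the plus strand, were called: chr9:97661068-97662041 gave -3.22 and -2.99 (difference -2.93, SE 0.36, adjusted p = 6.662e-08), and chr9:97662144-97662953 gave -2.62 and -2.58. Without replicate 2 the second had an adjusted p of 0.0568 by limma. The other 132 guides averaged -0.11 and -0.03. One NCBP1 junction was called higher, the 7th, chr9:97650600-97651309, at 0.71 and 0.54, though not with the median over guides (adjusted p = 0.305 by limma).

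Across all 20 genes, the 24 lower junctions carried 181 guides, 11.5% of the members, and 60.3% of the guides called lower singly. Without them, the mean over the remaining 1394 guides was -0.30 and -0.17, compared with -0.55 and -0.44 over all 1575. These means and the 2 comparisons that follow were defined after the data had been seen and describe the libraries without a test. The 24 junctions were called on the Day 21 values of the same guides. An excess of called guides on them, and higher means without them, follow from that choice. The junction lowest in replicate 1 was also lowest in replicate 2 in 10 of 18 member genes with at least 3 junctions of at least 3 guides, which had a median of 12 junctions. For 582 other scored genes, with a median of 7 junctions, the share was 49.8%. The 10 genes were EXOSC7, EXOSC10, DIS3, CPSF2, CPSF3, WDR33, CSTF3, NUDT21, INTS2 and NCBP1. In 16 of the 18 genes the junction lowest in replicate 1 lay below the rest of its gene in replicate 2. The same held in 474 of the 582 other scored genes.

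The lower junctions lay in every part of the genes and in every category. Of the 24, 9 lay in the 5′ part of the targeted junctions, 5 in the middle and 10 in the 3′ part, where 96, 12 and 98 were tested. The share called was highest in the middle, which is the central junction of a gene with an odd number of junctions, and was not tested. Another lower junction was next to 9 of the 24, which was neither tested nor compared with other genes. The deposited categories, which carry no definition in the sources used here, held 14 lower junctions of 99 tested as common, 2 of 18 as fully_unique, 4 of 42 as partial_unique and 4 of 47 as single_unique. Only EXOSC2, INTS2 and NCBP1 of the 20 genes had junctions of more than 1 category. In NCBP1 the 8 guides to its common junction averaged 0.28 and 0.69, against -0.42 and -0.35 for 138 guides to fully_unique ones. In INTS2 35 common guides averaged -0.28 and 0.01, against -0.56 and -0.39 for 106 partial_unique ones, and EXOSC2 had the opposite order, -1.02 and -0.38 against -0.43 and -0.25.

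Within the 24 lower junctions, guides also differed by the number they carry in the deposited table, whose meaning is not given in the sources used here. Guides numbered 3, 4, 5 and 6 averaged -2.84, -2.91, -2.85 and -3.18 at Day 21. Those numbered 1, 2, 7 and 8 averaged -2.15, -2.09, -1.75 and -1.81, with SDs between replicates of up to 0.75 (n = 2). On the other member junctions the 8 means lay between -0.30 and -0.18. This comparison too has no test.

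Single guides gave the most extreme values. limma called 131 of the 1575 member guides lower at Day 21 (8.32%), below the 11.1% of all 46829 guides, and 4 higher, against 0.218% of all guides. With all days in 1 fit and the replicate block, 265 were called lower and 70 higher, where 19.3% and 4.09% of all guides were. Among guides whose implied number at Day 0 reached 50, the lowest one was called in 17 of the 20 genes, and the highest in 2. They were picked by the same Day 21 values that the call uses, so these counts describe the guides and are not a test. In 5 genes that lowest guide stood at an implied number of 1 in both replicates at Day 21, the smallest the ratios allow, so the true loss could be larger.

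The lowest of all was guide 5 of the low DIS3 junction, chr13:72770988-72771080. It stood at 0.03 and -0.95 at Day 7, -3.28 and -5.46 at Day 14, and -6.89 and -8.00 at Day 21 (adjusted p = 2.023e-07 by limma). Replicate 1 had an implied 124 of it at Day 0 and 1 at Day 21, and replicate 2 had 233 and then 1. In EXOSC7 the lowest was guide 5 of the last junction, at -4.69 and -7.62. In CPSF3 it was guide 4 of the 4th junction, at -5.89 and -7.31.

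The 4 guides called higher lay above 0 in both replicates, 2 of them far more so in replicate 2. The lowest adjusted p was that of guide 8 of the first CPSF2 junction, chr14:92122128-92126121, at 3.63 and 2.67 (adjusted p = 0.00633 by limma). Guide 7 of the 14th CSTF3 junction, chr11:33085773-33085894, stood at 3.06 and 2.13 (adjusted p = 0.0314). Both had implied numbers under 50 in at least 1 Day 0 library and are named after their values were seen, to complete the 4. Guide 4 of the SYMPK junction chr19:45848001-45848749 reached 0.95 and 5.25, where implied numbers at Day 0 and Day 21 were 110 and 203 in replicate 1, and 105 and 4380 in replicate 2 (adjusted p = 0.0162 by limma). Guide 6 of the INTS9 junction chr8:28775926-28777828 reached 0.99 and 4.67 (adjusted p = 0.0271). Other guides were high in 1 replicate only. Guide 7 of the first CPSF2 junction stood at -0.22 and 5.30, and guide 4 of the PCF11 junction chr11:83164401-83165599 at 4.32 and 0.28, and neither was called. That PCF11 junction also held the gene's lowest guide, number 2, at -7.04 and -5.98. Over all member guides the replicates correlated at 0.47 at Day 21, and over 207 junctions with at least 3 guides at 0.71, both as descriptions, since the points share 2 libraries.

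Junctions of 1 or 2 guides were not tested against their gene. At the NCBP1 junction chr9:97643360-97645116, 2 guides averaged -5.91 and -4.46, lower than any tested junction of that gene. At chr20:56395721-56397206 in CSTF1, 2 guides averaged -3.02 and 0.00, so that replicate 1 alone was low. With these included, 26 of the 213 member junctions were at or below -1 in both replicates. The share over all junctions of the screen is not given here, so this count has no background beside it.

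The loss appeared between Day 7 and Day 14. At Day 7 gene means lay between -0.33 and 0.17 in either replicate, only 7 of 20 genes were below 0 in both, and limma called none of the 20 (none at an unadjusted p under 0.05 either), where 3.92% of all genes were called. At Day 14 EXOSC7, EXOSC8 and CPSF3 were called, with means of -1.50, -0.90 and -0.77 (adjusted p = 0.00669, 0.0159 and 0.0245 by limma), among 22.1% of all genes. The replicate block gave a Day 14 count of 12 (38.3% of all genes), the median over guides 0 (7.20% of all), and CPSF3 was not called without replicate 2 (adjusted p = 0.0552). At that day 18 genes were below 0 in both replicates. For the counts below 0 at Days 7 and 14 no share over all genes is given here, so they only describe the 20 genes.

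The same 3 genes fell between these days by the test of the difference itself, where 21.1% of all genes did. EXOSC7 dropped by 1.48, EXOSC8 by 0.70 and CPSF3 by 0.68 on the log2 scale from Day 7 to Day 14 (adjusted p = 0.000361, 0.0173 and 0.0160 by limma). None of the differences was called when the Day 14 library of either replicate was left out, which leaves that day 1 sample. From Day 14 to Day 21 limma called no member gene, against 1.06% of all genes, and 1 had an unadjusted p under 0.05, EXOSC5. It went from -0.17 and -0.23 to -0.63 and -0.61 (difference -0.42, unadjusted p = 0.0147 by limma, adjusted p = 0.209). Day 21 lay below Day 14 in both replicates in 13 of 20 genes, a count given without a share over all genes. All days of a replicate share its Day 0 library.

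Junctions called lower at Day 21 were mostly below 0 by Day 7 and much lower by Day 14. Their median was -0.17 and -0.77 at Day 7, -1.54 and -2.26 at Day 14, and -2.34 and -2.41 at Day 21. At Day 7 replicate 2 was the lower, and 22 of the 24 were already below 0 in both replicates. By Day 14, 20 were below -1 in both, and 16 were lower at Day 21 than at Day 14 in both. The earlier days did not enter the call, but they share the Day 0 libraries and the guides with it.

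The deposited type and the deposited GeCKO score did not order the 20 genes as these values did. The table types 14 of them Cas13 Essential and 6 (EXOSC2, EXOSC5, CSTF3, INTS2, INTS6 and NCBP1) Cas13 Non-Essential, by a criterion that is not given in the sources used here and may use these same values. The 14 had a median Day 21 mean of -0.57 and ranged from -1.62 to 0.03. The 6 had a median of -0.46 and ranged from -0.62 to -0.34, inside the range of the 14. All partial_unique and fully_unique junctions lay in the 6 genes and all single_unique ones in the 14. Type and category are therefore largely the same split of these genes and cannot be told apart here. EXOSC10 and CSTF1, near 0 at Day 21, are typed Cas13 Essential. Over the 20 genes the GeCKO gene score and the Day 21 mean had a Pearson r of -0.11 and a Spearman rho of 0.09, given as a description. EXOSC7, the lowest here, has the score nearest 0, -0.89, and CPSF2, at -0.43 and -0.31, has the most negative, -1.62.

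Of 46 listed genes from neighbouring steps of RNA polymerase II transcript processing, 11 were measured. One was called lower at Day 21, SUPT6H, a transcription elongation factor, whose 223 guides averaged -1.17 and -1.11 (adjusted p = 0.0207 by limma). None was called higher, and the median of the 11 was -0.41. PHAX, an export adaptor for small nuclear RNA that works with the cap-binding complex, stood at -1.26 and -0.61 (adjusted p = 0.0728), and SRRT, another partner of that complex, at -0.72 and -0.53 (adjusted p = 0.0728). NELFB and NELFCD, subunits of the negative elongation factor that pauses RNA polymerase II, lay above 0 in both replicates, at 0.68 and 0.67 and at 0.59 and 0.50, without passing the test (adjusted p = 0.0574 and 0.0844).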

How the data were processed

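Guide cassettes were amplified from genomic DNA by 2-step PCR, per the labels' protocols, which name no molecular identifiers. The submitters' processing notes list cutadapt 3.5, Bowtie 1.1.2 and hg38, with no role given. The deposited table holds log2 fold changes per guide, day and replicate against Day 0, per the file headers, and the authors' GeCKO gene score. The read counter, pseudocount, scaling and filters are not given in the sources used here, and guide sequences were not used here. All 20 member symbols are in the RefSeq gene table of GRCh38.p14, and all 213 member junctions, printed as deposited, lie inside their gene's span.

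Groups were taken from the labels. The members and gene lists were chosen with earlier results of these data known. Each day was fitted alone with limma 3.58.1 in R 4.3.3 on the mean of 2 replicates, for 1223 genes with at least 3 guides, 46829 guides, and 6111 junctions with at least 3 guides on each side. Benjamini-Hochberg adjustment ran over all of them, and a call is an adjusted p under 0.05. Fits that leave out a replicate pool the spread over all days. The scripts were tested on simulated data. Values in every library are given for genes called by mean or by a junction and for the lowest and highest gene of each complex, and guides are named as the lowest and highest of such a gene among those whose implied number at Day 0 reached 50.

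In each library 100% of values were a library constant added to the log2 of 1 whole number over another (the latter up to 2000, relative tolerance 1e-09), and the lowest number that fits all days is the implied number, a lower bound. Replicate numbers pair the days, since each fold change is against Day 0 of its replicate: deviations of the same number correlated at 0.48, 0.41 and 0.65 between days over all guides.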

Additional observations from a re-analysis of the deposited data

Results flagged for a closer look

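The change against Day 0 differed between Day 7 and Day 14, by limma's test of the difference, for EXOSC7 (-1.48), EXOSC8 (-0.70) and CPSF3 (-0.68). In EXOSC7 the differences were -1.43 and -1.53 in replicates 1 and 2, in EXOSC8 -0.84 and -0.55, and in CPSF3 -0.72 and -0.64, so both replicates fell in each gene. The cause was not tested. Groups of 2 replicates are too small for a search for outlying libraries.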

How the results depend on the processing

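Counts of called genes and junctions moved with several choices, and the cause was not tested. At Day 21 the 3 genes called became 0 with the median over guides, 1 with libraries centred on all guides, 6 where implied numbers at Day 0 had to reach 50, 8 with at least 6 guides per gene, 16 with all days in 1 fit and 16 with the replicate block, and 8 to 11 without a replicate. At Day 14 the 3 became 0, 6 (at least 6 guides), 11 (1 fit) and 12 (block), and 2 to 3 without a replicate. From Day 7 to Day 14 the 3 became 0 with medians, 1 centred on all guides and 0 to 0 without a replicate. The block gave 265 lower guides in place of 131. Called junctions, 35 in all, became 19 with medians, 63 in 1 fit and 106 with the block. Without a replicate they were 38 to 43, and lower guides 107 to 138. No called junction reversed, and 10 of 24 lower and 0 of 11 higher ones kept their call under every alternative run. Complex medians moved for the exosome core to -0.64 (medians) and -0.87 (centred on non-targeting guides), for its nucleases to -0.15 (medians) and -0.43 (implied number), for CPSF and scaffold to -0.29 (medians), and for Integrator to -0.32 (medians) and -0.61 (implied number). Without a replicate they ranged from -0.90 to -0.88, -0.40 to -0.31, -0.62 to -0.54, -0.32 to -0.10 (CstF) and -0.57 to -0.54. Centring on all guides raised Day 21 values by 0.33 and 0.28. It turned Day 14 means above 0 for EXOSC5 (0.0302), EXOSC10 (0.133), NUDT21 (0.0147), INTS13 (0.0836) and NCBP1 (0.0296), and Day 21 means for EXOSC10 (0.262), NUDT21 (0.0926) and INTS13 (0.0607). Medians did so at Day 14 for EXOSC10 (0.0533), NUDT21 (0.0691), INTS13 (0.00275) and NCBP1 (0.0880), and at Day 21 for EXOSC10 (0.0703), NUDT21 (0.196) and NCBP1 (0.0291), and put CSTF1 at -0.0258. CSTF1 was also below 0 at an implied number of at least 50 (-0.119). Without a replicate CSTF1 ranged from -0.0806 to 0.297 at Day 14 and from -0.177 to 0.235 at Day 21, and EXOSC10 from -0.232 to 0.0344 and from -0.199 to 0.109. With 2 replicates and unknown read depth, small differences were not detectable.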

Other observations

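The controls that matched by name belong to the CCR4-NOT complex, which shortens poly(A) tails. The 5 guides to CNOT4 averaged 0.04 and 0.00 at Day 7, 0.39 and 0.27 at Day 14, and 1.02 and 0.42 at Day 21 (adjusted p = 0.108 by limma). The 3 guides to CNOT8 averaged 0.33 and -0.21 at Day 21 (adjusted p = 0.861). Neither passed the test, and CNOT8 had replicates of opposite sign.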
